A study of Mus musculus with 6 samples.

Results

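Expression of 9 genes of the epithelial tight junction was followed: Ocln, Marveld2, Marveld3, Tjp1, Tjp3, Cgn, F11r, Cxadr and Crb3. They were chosen by name, as junction scaffolds, proteins of tricellular contacts, and their adhesion and polarity partners. These 9 genes are among 34989 with a matched transcript, and all 9 were among the 16938 genes that passed the filter on low counts. RNA came from E14.5 handpads, the paddles at the ends of the forelimbs, of C57BL/6 mice. There were 3 libraries labelled Grhl3KO, called KO here, and 3 libraries labelled WT. The series compares Grhl3-/- handpads with control embryos and concerns the separation of the digits. Grhl3 encodes a grainyhead-like transcription factor of the surface epithelium. Neither the deleted stretch of Grhl3 nor the number of embryos behind a library is given in the sources used here. The p-values below therefore refer to the spread among these 6 libraries, and some of that spread may be technical.

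Tight junctions are belts of contact at the top of the side walls of epithelial cells, where claudin strands close the space between cells. MARVEL-domain proteins, among them occludin and tricellulin, sit in or beside the strands, and tricellulin is gathered where 3 cells meet. Below the membrane, PDZ-domain scaffolds of the ZO family and cingulin tie the strands to actin, while the Crumbs complex marks the apical side. In embryonic skin the outermost cell layer, the periderm, already carries such junctions.

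Libraries held 47642524 to 56037639 estimated counts in KO and 38052692 to 48984542 in WT. Grhl3 itself had 3.11, 2.86 and 2.95 CPM (reads scaled to a common library size by the TMM method) in KO, against 14.3, 45.7 and 18.5 CPM in WT. That is a log2 fold change of -3.14 ± 0.41 (SE, n = 3 each; edgeR quasi-likelihood test, Benjamini-Hochberg adjusted p = 0.0221), the direction the labels give. Hoxd13, a gene of the distal limb, had 264, 346 and 209 CPM in KO and 334, 260 and 261 CPM in WT. Epcam, an epithelial surface marker, had 77.5, 69.4 and 65.6 CPM in KO and 34.7, 52.2 and 39.7 CPM in WT. The mean length of the transcripts counted was 3347 to 3480 bases in KO, 3601 and 3625 bases in WT replicates 3 and 2, and 3148 bases in WT replicate 1. The summed CPM of 4 Y-linked genes was 3.43 to 4.49 in KO and 5.57, 283 and 327 in WT, so WT replicate 1 was low in Y-linked RNA as the KO libraries were, and WT replicates 2 and 3 were high. The part of either in the results below was not tested beyond the alternatives given with them.

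The upstream sequences of 4 genes are shown first, because in these genes every KO library lay above every WT library. Each is the 250 bases before the first start listed for the gene in the RefSeq promoter table of build GRCm38.p6, and the capitals mark GGGCGG, the GC box, on either strand. That table held 11 starts for 7 of the 9 genes, and Marveld3 and Cxadr are named only. The starts listed for Crb3 and Tjp1 lie inside the annotated genes, which begin further upstream. The sequence before those outer ends is neither shown nor searched here.
Crb3, chr17:57061951-57062200, + strand: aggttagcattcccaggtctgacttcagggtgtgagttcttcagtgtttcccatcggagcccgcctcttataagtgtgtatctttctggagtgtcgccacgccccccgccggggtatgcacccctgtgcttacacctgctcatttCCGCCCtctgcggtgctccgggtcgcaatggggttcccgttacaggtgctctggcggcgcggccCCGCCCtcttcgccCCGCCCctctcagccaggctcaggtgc
Marveld2, chr13:100616972-100617221, - strand: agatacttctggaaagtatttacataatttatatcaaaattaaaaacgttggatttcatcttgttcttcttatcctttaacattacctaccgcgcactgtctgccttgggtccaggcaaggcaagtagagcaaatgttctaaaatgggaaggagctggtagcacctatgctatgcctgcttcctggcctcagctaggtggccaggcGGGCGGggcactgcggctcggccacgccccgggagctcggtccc
Ocln, chr13:100552719-100552968, - strand: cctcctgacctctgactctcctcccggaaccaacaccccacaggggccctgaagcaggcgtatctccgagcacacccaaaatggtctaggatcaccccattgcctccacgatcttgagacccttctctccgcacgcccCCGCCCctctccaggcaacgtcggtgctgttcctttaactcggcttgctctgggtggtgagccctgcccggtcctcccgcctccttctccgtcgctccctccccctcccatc
F11r, chr1:171437311-171437560, + strand: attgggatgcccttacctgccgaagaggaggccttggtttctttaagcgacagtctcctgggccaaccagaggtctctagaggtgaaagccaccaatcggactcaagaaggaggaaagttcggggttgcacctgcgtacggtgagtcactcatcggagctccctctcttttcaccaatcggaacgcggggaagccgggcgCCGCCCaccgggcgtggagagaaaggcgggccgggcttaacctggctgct
GGGCGG was searched after these promoters had been seen. It stood before 9 of the 11 starts and in 6 of the 7 genes (all but Tjp3), against 32.7% of the 32851 starts in the table. The most matches, 6, stood before Cgn, whose groups overlapped in CPM. There were 3 before each start of Crb3, 2 before Tjp1, and 1 before F11r and before each start of Marveld2 and Ocln. The windows before the starts of Ocln overlap each other, as do those of Marveld2 and those of Crb3, so the 9 starts are not separate counts. A match is a description of letters, not a bound site.

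Grainyhead-like factors are known to bind AACCGGTT and near variants of it. Over the 250 bases before and 50 after each start, on both strands, AACCGGTT was in none of the 11 windows of these genes and in 0.146% of all windows. The looser AACNGGTT, which includes AACCGGTT, was in 1 of them, that of Cgn, and in 2.09% of all windows. The Cgn match began 29 bases before the start and is in capitals here, in a stretch on the - strand.
Cgn, chr3:94786493-94786522: tcctggggagtAACAGGTTggtgggcgggg
Cgn was not among the genes whose groups separated, as its values below show.

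Under the quasi-likelihood test, at a false discovery rate (FDR) under 0.05 over all genes, 0 of the 9 genes were called, where 0.431% of all genes tested were. At an unadjusted p under 0.05, 4 of the 9 were higher in KO, against 3.81% of all genes. The same 4, Crb3, Marveld2, Ocln and F11r, had every KO library above every WT library in CPM, against 6.77% of all genes. Of the 9 fold changes 8 were positive and 1, that of Marveld3, was negative. Their median was 0.42 on the log2 scale, beside -0.004 for all genes tested. The genes were picked with earlier results of these data known, so these counts describe them and test nothing about the group. Other tests of the same counts gave calls. DESeq2 called Crb3 (adjusted p = 0.000871) and Marveld2 (adjusted p = 0.00401), where it called 0.915% of all genes as higher in KO. The likelihood ratio test of edgeR called the same 2 genes, at adjusted p = 0.00619 and 0.0227, where it called 1.09% of all genes as higher. The authors' deposited table of 941 genes holds 4 of the 9: Crb3 with a log2 fold change of 1.01 and an FDR of 0.00607, Marveld2 with 0.86 and 0.0226, F11r with 0.47 and 0.0882, and Ocln with 0.81 and 0.15. A place in that table is thus not a call at an FDR under 0.05, since F11r and Ocln stand above it. Grhl3 stands at -3.14 in the authors' deposited table, so its fold changes also run KO minus WT.

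**Figure D1:**
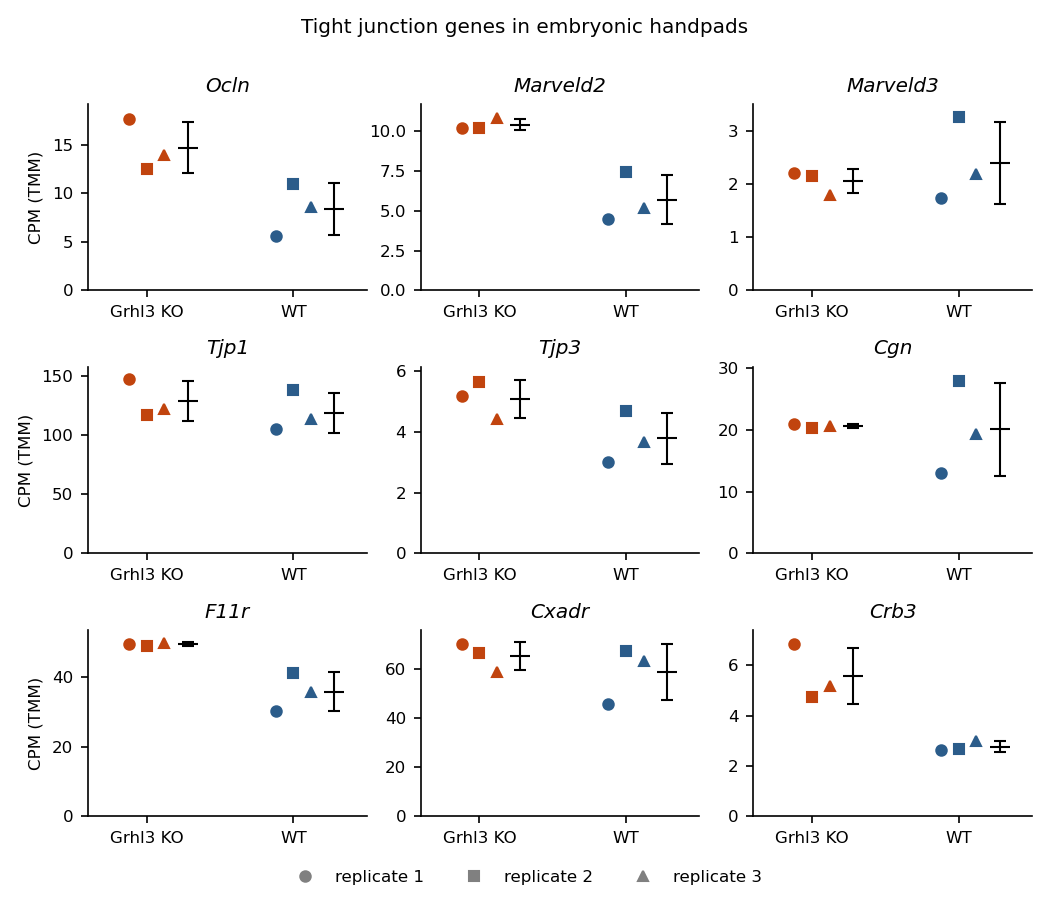
CPM of the 9 genes in each library, KO on the left and WT on the right of each panel; bars give the mean ± SD of 3 libraries and the vertical axes start at 0. The KO points of Ocln, Marveld2, F11r and Crb3 lie above all WT points, and WT replicate 1, the circle, is the lowest WT point in 9 of 9 genes.

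Crb3 encodes the epithelial Crumbs protein, a short transmembrane protein that recruits PALS1 and PATJ to the apical membrane. The gene lies at chr17:57059105-57065918 on the + strand of mm10. It had 6.84, 4.74 and 5.17 CPM in KO, against 2.64, 2.67 and 3.01 CPM in WT. The lowest KO library was well above the highest WT library, and the 3 WT libraries were close to each other. The mean was 5.58 ± 1.11 CPM in KO and 2.77 ± 0.206 CPM in WT (SD, n = 3 each), 2.01-fold, or 1.01 ± 0.20 (SE) on the log2 scale. Its edgeR quasi-likelihood adjusted p was 0.105, and by p it ranked 118 among the genes tested, of which 73 were called. The counts behind it are modest, 225 to 337 reads in KO and 100 to 133 in WT. No 31-base stretch of its transcripts occurs in a transcript of another gene on either strand.

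Occludin and tricellulin are the MARVEL proteins of the strands, and their genes are neighbours. Ocln lies at chr13:100496507-100552718 and Marveld2, which encodes tricellulin, at chr13:100595957-100616971, both on the - strand. Their annotated bodies are 43238 bases apart with no protein-coding gene between them. Marveld2 had 10.2, 10.2 and 10.8 CPM in KO, against 4.49, 7.44 and 5.14 CPM in WT. The KO libraries were almost equal and all above the WT libraries, which differed more among themselves. The log2 fold change was 0.87 ± 0.20 (SE), 1.82-fold, with an edgeR quasi-likelihood adjusted p of 0.181. Ocln had 17.7, 12.5 and 14 CPM in KO, against 5.6, 11 and 8.6 CPM in WT. Here the highest WT library, replicate 2, came close to the lowest KO library. This is a log2 fold change of 0.81 ± 0.24 (SE), 1.75-fold, with an edgeR quasi-likelihood adjusted p of 0.388.

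Marveld3, the third MARVEL protein of tight junctions, lies at chr8:109947914-109962203 on the - strand and had the lowest counts of the 9 genes in KO. It had 2.21, 2.15 and 1.8 CPM in KO, against 1.74, 3.25 and 2.18 CPM in WT. All KO values lay inside the WT range. The log2 fold change was -0.22 ± 0.27 (SE; edgeR quasi-likelihood adjusted p = 0.966), and without WT replicate 2 it was 0.07, so its sign rests on that library.

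F11r encodes JAM-A, an immunoglobulin-like adhesion receptor that binds ZO and PAR scaffolds, and lies at chr1:171437535-171464603 on the + strand. It had 49.6, 48.9 and 49.9 CPM in KO, against 30.2, 41.3 and 35.8 CPM in WT. The 3 KO libraries were within about 1 CPM of each other, and the groups did not overlap. The means were 49.5 ± 0.513 CPM in KO and 35.8 ± 5.52 CPM in WT (SD, n = 3 each), a log2 fold change of 0.47 ± 0.12 (SE), with an edgeR quasi-likelihood adjusted p of 0.261. On the length-corrected scale of TPM (abundance per transcript length), F11r had 32.1, 46.4 and 46.6 in KO, against 32.2, 33.9 and 24.8 in WT, so there the groups overlapped. Short retained-intron transcripts take a large share of its TPM, and over protein-coding transcripts alone it had 23.7, 21.3 and 21.8 TPM in KO, against 11.7, 21.5 and 18.5 TPM in WT. The separation seen in CPM is thus not kept on either TPM scale. Ocln, Marveld2 and Crb3 did separate in TPM, and all their transcripts are protein-coding, so for them both TPM scales are the same. For Ocln the separation was narrow, with 5.6 TPM in the lowest KO library and 5.57 TPM in the highest WT library.

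Cxadr encodes the coxsackievirus and adenovirus receptor, a cell contact protein of the same superfamily, and lies at chr16:78301489-78359774 on the + strand. It had 70.2, 66.4 and 58.9 CPM in KO, against 45.6, 67.3 and 63.3 CPM in WT. The groups overlapped, and only WT replicate 1 lay below the KO range. The log2 fold change was 0.15 ± 0.15 (SE; edgeR quasi-likelihood adjusted p = 0.952), and -0.0027 without WT replicate 1.

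The KO and WT libraries of the plaque scaffolds overlapped in all 3 genes. Tjp1 encodes ZO-1, the PDZ scaffold that links claudins and occludin to actin, and lies at chr7:65296165-65527781 on the - strand. It had 148, 117 and 122 CPM in KO, against 105, 138 and 114 CPM in WT, which overlap. For Tjp1 the log2 fold change was 0.12 ± 0.13 (SE; edgeR quasi-likelihood adjusted p = 0.963). Tjp3, at chr10:81273207-81291581 on the - strand, encodes ZO-3, an epithelial member of the family. It had 5.16, 5.64 and 4.4 CPM in KO, against 3.01, 4.67 and 3.67 CPM in WT. WT replicate 2 lay above the lowest KO library. Tjp3 thus had a log2 fold change of 0.42 ± 0.21 (SE; edgeR quasi-likelihood adjusted p = 0.771).

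Cgn encodes cingulin, which binds ZO-1 and myosin at the junction, and lies at chr3:94760069-94786492 on the - strand. It had 21, 20.4 and 20.6 CPM in KO, against 13, 28 and 19.3 CPM in WT. The KO libraries were almost equal and sat in the middle of a wide WT range. The log2 fold change was 0.04 ± 0.24 (SE; edgeR quasi-likelihood adjusted p = 1), and -0.20 without WT replicate 1. Of the 31-base stretches of its transcripts, 21.6% also occur in other genes, mainly the pseudogene BC021767. That pseudogene had 3.86 to 25.2 estimated counts per library, against 494 to 1398 for Cgn, but how kallisto divided their shared reads cannot be checked here. The shared part was under 1% in the other 8 genes.

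Spread differed between the groups. On the log2 CPM scale the SD was larger in WT than in KO in 8 of the 9 genes, all but Crb3, and in 67.1% of all genes tested. It was 0.02 in KO and 0.55 in WT for Cgn, 0.01 in KO and 0.22 in WT for F11r, and 0.04 in KO and 0.37 in WT for Marveld2. Among the WT libraries, replicate 1 was lowest in 9 of 9 genes and replicate 2 highest in 8 of 9. Replicates have no order, and this says only that the WT libraries moved together across these genes.

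**Figure D2:**
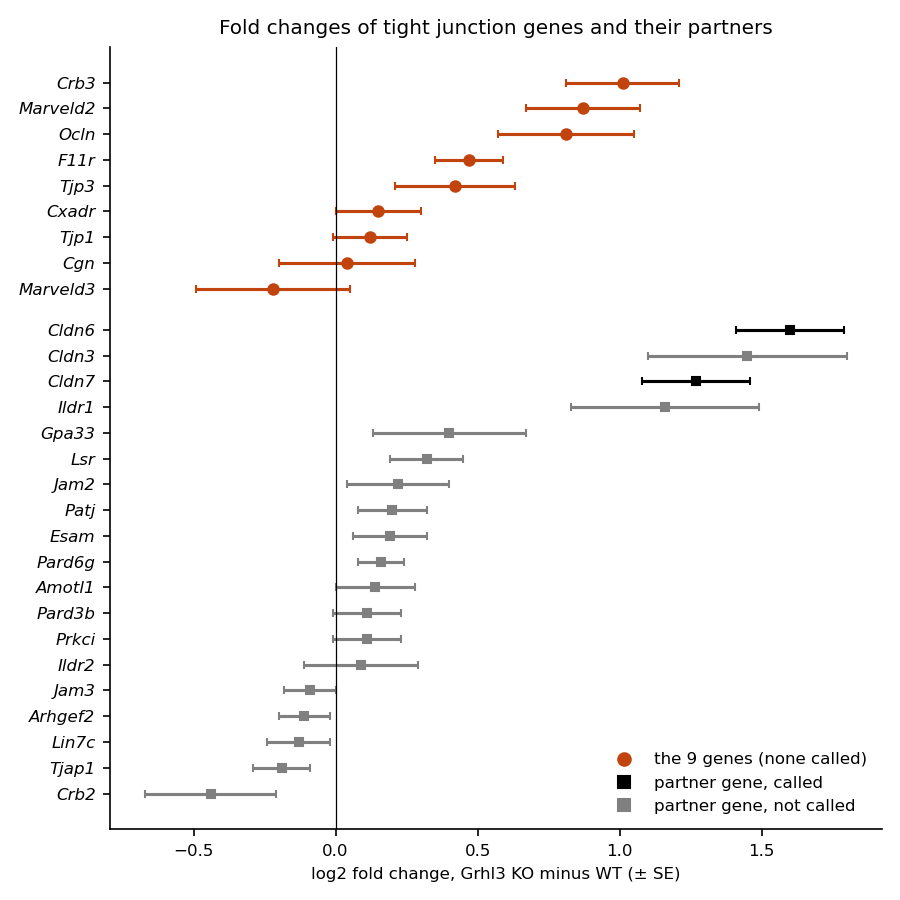
Log2 fold changes, KO minus WT, with SE bars from the quasi-likelihood fit, for the 9 genes (circles) and named partner genes of the angulin, adhesion receptor, polarity, plaque adaptor and claudin lists (squares). Crb3 is the highest of the 9 at 1.01 and Marveld3 the lowest at -0.22; the called genes, in black, are Cldn6 at 1.60 and Cldn7 at 1.27.

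The wider junction was read from partner lists of 82 symbols, of which 59 were tested. Cldn6 and Cldn7 were called as higher and none as lower, where 0.431% of all genes tested were called. At an unadjusted p under 0.05 there were 9 higher and 0 lower, against 3.81% of all genes higher. The median log2 fold change was 0.05. The lists were chosen with earlier results of these data known, so these counts describe them and test nothing about the junction. Claudins, the strand formers, held both called genes among 17 tested. Cldn6 had 28.7, 26.6 and 23.5 CPM in KO, against 7.13, 11.3 and 7.46 CPM in WT (log2 fold change 1.60 ± 0.19 SE, edgeR quasi-likelihood adjusted p = 0.0146). Cldn7 had 7.98, 6.91 and 6.31 CPM in KO, against 3.41, 2.93 and 2.45 CPM in WT (log2 fold change 1.27 ± 0.19 SE, edgeR quasi-likelihood adjusted p = 0.0337). Both were separated by more than the spread within a group. Cldn3 had 11, 7.84 and 8.75 CPM in KO, against 1.98, 5.44 and 2.63 CPM in WT, and was not called (edgeR quasi-likelihood adjusted p = 0.213).

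Angulins are the receptors that bring tricellulin to tricellular contacts, and 0 of 3 were called. Ildr1 had 3.29, 1.98 and 2.75 CPM in KO, against 0.898, 1.75 and 0.911 CPM in WT, a log2 fold change of 1.16 ± 0.33 (SE; edgeR quasi-likelihood adjusted p = 0.341). Its groups did not overlap, though WT replicate 2 came near KO replicate 2. Lsr had a log2 fold change of 0.32 and Ildr2 of 0.09, both with overlapping groups. Of the scaffold paralogs, Cgnl1, which encodes paracingulin, stood at 0.04 on the log2 scale and Marveld1 at -0.03, both with overlapping groups.

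None of the remaining lists held a called gene: 0 of 5 adhesion receptors of the JAM and CTX families, 0 of 7 genes of the Crumbs complex, 0 of 8 of the PAR complex and 0 of 15 plaque adaptors. The nearest relatives of F11r stood at 0.22 (Jam2) and -0.09 (Jam3) on the log2 scale. In the Crumbs complex, the partners of Crb3, the list median was -0.07, with Patj at 0.20 and Lin7c at -0.13. Crb2, the paralog of Crb3, had 1.66, 1.45 and 2.07 CPM in KO, against 2.09, 2.15 and 2.81 CPM in WT, a log2 fold change of -0.44 (edgeR quasi-likelihood adjusted p = 0.792), with the groups barely apart. In the PAR complex, which sets the apical border, the 3 genes with the smallest p were Pard6g at 0.16, Pard3b at 0.11 and Prkci at 0.11. In the plaque list they were Tjap1 at -0.19, Amotl1 at 0.14 and Arhgef2 at -0.11.

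Most other epithelial genes listed also had positive fold changes, though not all. In whole tissue, fewer cells of a type and less RNA per cell cannot be told apart. A pan-epithelial list of 23 genes, none at 0, had a mean log2 CPM of 6.61, 6.29 and 6.55 in KO and 5.60, 6.38 and 5.81 in WT. These list means overlapped between groups, as WT replicate 2 lay above KO replicate 2. At an unadjusted p under 0.05, 12 of its genes were higher in KO, against 3.81% of all genes. None of the list was called by the edgeR quasi-likelihood test, and its median log2 fold change was 0.58. Of its 23 log2 fold changes 20 were positive, and those of Rab25 (-0.45), Esrp2 (-0.34) and Esrp1 (-0.0011) were negative. WT replicate 1 was lowest and WT replicate 2 highest among WT libraries in this list too. The marker lists were chosen with earlier results of these data known, so counts over them are a description only. In a periderm list of 10 genes that includes Cldn6, 7 were called as higher and none as lower, where 0.431% of all genes tested were called. The median log2 fold change of this list was 1.74, and its summed CPM was 596 to 1175 in KO and 158 to 280 in WT. Its member Krt4, a keratin singled out after its values were seen, went the other way without being called, at 22.4, 13.1 and 14.2 CPM in KO, against 37.6, 83.4 and 46.5 CPM in WT (log2 fold change -1.75, edgeR quasi-likelihood adjusted p = 0.0785). Endothelium, which also uses F11r and Tjp1, had a list mean of 4.65 to 4.74 log2 CPM in KO and 4.50 to 4.57 in WT, with 0 of 12 genes called. A cartilage list had a mean of 6.34 to 7.01 in KO and 7.24 to 7.49 in WT, with 0 of 10 called. Lists for limb mesenchyme, muscle, leukocytes and platelets, erythroid cells, and nerve had overlapping groups, and no gene of any was called. No marker of these lists was at 0 in all libraries. The part of cell composition in the fold changes was not tested.

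Each gene was also set against the pan-epithelial list, as its log2 CPM minus the list mean in the same library. Crb3 then stood at -3.83, -4.03 and -4.17 in KO, against -4.18, -4.94 and -4.20 in WT, and Marveld2 at -3.25, -2.93 and -3.12 in KO, against -3.42, -3.47 and -3.44 in WT. These 2 genes kept all KO libraries above the WT libraries, by 0.43 and 0.34 on the log2 scale, although for Crb3 the lowest KO and highest WT values nearly touch. Ocln differed by 0.29, with overlap, and F11r by -0.08. In 3 genes, by contrast, all KO libraries were below the WT libraries. Marveld3 stood at -5.43, -5.16 and -5.67 in KO, against -4.76, -4.66 and -4.66 in WT, a difference of -0.73. Cgn differed by -0.45 and Tjp1 by -0.44 on the same scale. Cxadr, at -0.39, and Tjp3, at -0.12, overlapped. The exact two-sided permutation p was 0.1 for the 5 genes without overlap, which is the smallest that 3 against 3 libraries can give, so none of these 9 comparisons could pass 0.05. Over all genes tested, 0.779% had every KO library above WT on this scale and 28.6% had every KO library below WT, so 3 of 9 below is near the background. A gene near 0 in plain CPM can therefore lie below WT on this scale, and the sign of Tjp1, Tjp3, Cgn, F11r and Cxadr depends on which scale is used.

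**Figure D3:**
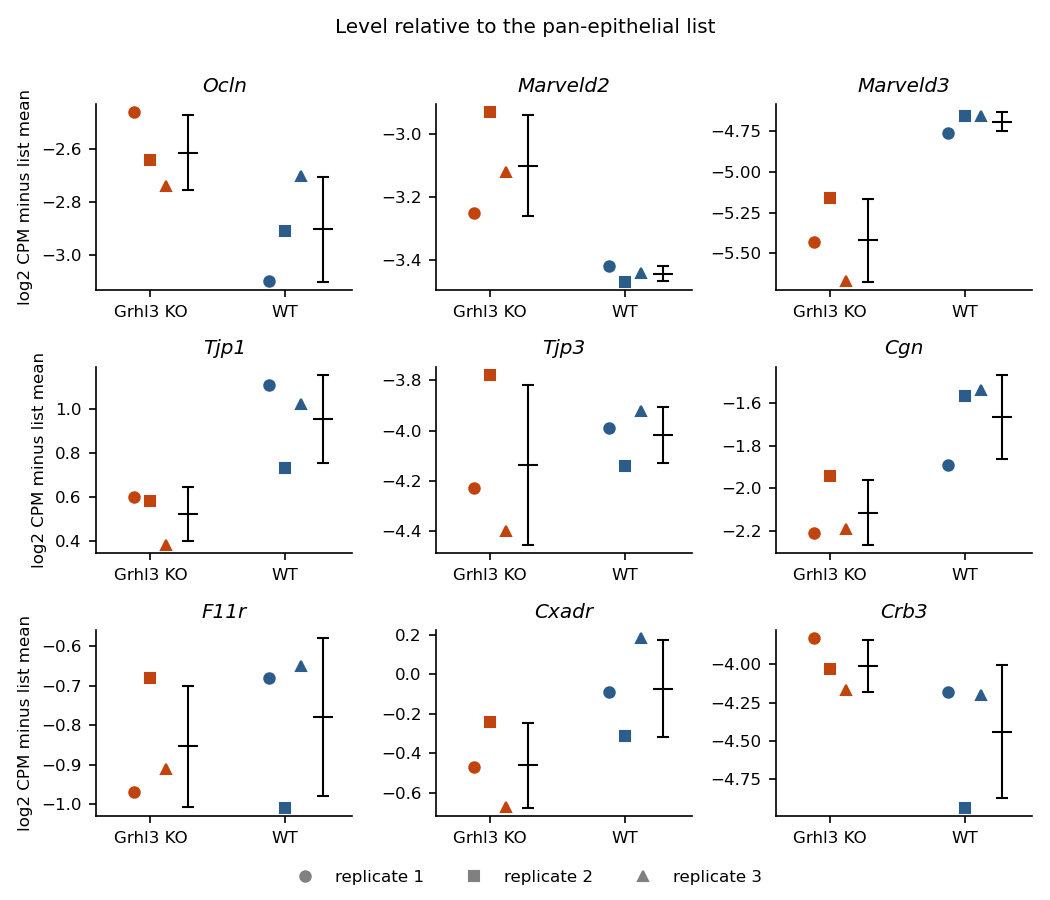
Log2 CPM of each gene minus the mean log2 CPM of 23 pan-epithelial genes in the same library, KO left and WT right, with mean ± SD of 3 libraries; the vertical axes differ between panels and do not start at 0. Marveld2 and Crb3 have all KO points above the WT points, and Marveld3, Tjp1 and Cgn have all KO points below.

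To compare levels between genes, TPM was used. Summed over all transcripts, the order in KO was F11r at 41.7 ± 8.33 TPM, Tjp1 at 38 ± 2.92, Cxadr at 13.1 ± 1.59, Crb3 at 10.7 ± 1.84, Ocln at 6.46 ± 1.21, Marveld2 at 4.97 ± 0.0924, Cgn at 4.66 ± 0.178, Tjp3 at 3.66 ± 0.675 and Marveld3 at 1.49 ± 0.102 (SD, n = 3). F11r overlapped with Tjp1 and Cxadr with Crb3, while every other pair of neighbours was separate in KO. Marveld2 and Cgn were barely so, as the lowest Marveld2 value and the highest Cgn value both round to 4.86 TPM. In WT, Tjp1 led at 39 ± 2.97 TPM, then F11r at 30.3 ± 4.84 and Cxadr at 12.4 ± 3.88, each separate from the next. Below them Crb3 at 5.56 ± 0.985, Cgn at 4.99 ± 2.32, Ocln at 3.87 ± 1.85, Tjp3 at 3.33 ± 1.56, Marveld2 at 2.77 ± 0.748 and Marveld3 at 1.68 ± 0.781 TPM each overlapped with the next. Summed TPM gives weight to short transcripts. Tjp1-203, a non-coding transcript of 699 bases, held 38.8% to 51.6% of the TPM of Tjp1 in KO and 41.9% to 63.4% in WT, but 2.93% to 4.51% of its counts in KO and 3.06% to 7.35% in WT. Over protein-coding transcripts alone, a scale added after this was seen, Tjp1 had 15.6 ± 4.72 TPM in KO and 15.5 ± 4.1 TPM in WT, and F11r 22.3 ± 1.24 TPM in KO and 17.2 ± 5.05 TPM in WT (SD, n = 3 each).

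Isoforms were read from the kallisto estimates of 39 transcripts of the 9 genes. Of 27 tested, 0 were called by the edgeR quasi-likelihood test, where 0.00213% of all transcripts were. An unadjusted p under 0.05 was found for 4 of them, against 2.86% of all transcripts. DESeq2, run without the low-count filter, called 1, Crb3-202, as higher in KO (adjusted p = 0.00348), where it called 0.3% of all transcripts as higher. Crb3-202 was not among the 27, because it did not pass that filter, and its estimated count was 0 in each WT library. Among 32 transcripts with at least 5% of a gene's TPM, the share had no overlap between groups in 7, with an exact two-sided permutation p of 0.1 in each, the smallest possible. The same held for 7.23% of all transcripts with such a share in tested genes with several transcripts. The 7 lie in Cgn, Cxadr, Crb3 and Tjp3 alone, and in Cgn, Cxadr and Crb3 they are pairs that moved in opposite directions. Within a gene a higher share of any transcript lowers the rest, so the 7 are not separate results. The Tjp3 transcript had 2, 6 and 3 estimated counts in KO, against 0, 0 and 1 in WT. The main pair of Cgn transcripts is shown because its mean shares differ most among the 32, with KO minus WT at 34.6 percentage points for Cgn-201 and -32.6 for Cgn-202. Within the coding sequence Cgn-202 carries 24 bases, or 8 codons, that Cgn-201 lacks, at chr3:94778066-94778089 on the - strand, in capitals here.
Cgn-202: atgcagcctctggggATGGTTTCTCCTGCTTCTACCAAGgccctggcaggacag
Cgn-201: atgcagcctctgggggccctggcaggacag
Cgn-201 held 72.3%, 54.0% and 60.4% of the TPM of Cgn in KO, against 12.7%, 51.5% and 18.7% in WT. Cgn-202 held 23.6%, 41.0% and 33.0% in KO, against 84.0%, 43.0% and 68.3% in WT. The groups were separate, but WT replicate 2 lay next to KO replicate 2 in both. Cgn-201 has 4963 bases and Cgn-202 has 5016, and their coding lengths differ by only the 24 bases shown. How kallisto divided reads between these 2 transcripts cannot be checked here. The log2 fold change of Cgn-202 was -0.83 ± 0.24 (SE; edgeR quasi-likelihood adjusted p = 1).

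Crb3 has 2 coding ends, and the last 30 bases of each, stop codon included, are given on the + strand, since they set which tail the protein has. Capitals mark bases that are not coding in the other transcript. The first, at chr17:57065267-57065296, is shared by Crb3-201, Crb3-202 and Crb3-204, and the second is at chr17:57065654-57065683.
Crb3-204: AAGCTGCCCCCGGAGGAGCGGCTCATCTGA
Crb3-205: GAGCCAGTGCGGGGCTGCCTGCCCATCTAG
Crb3-205 held 19.1%, 42.3% and 30% of the TPM of Crb3 in KO, against 34.4%, 36.1% and 20.8% in WT, so the balance of the ends overlapped between groups. Crb3-202 was estimated at 51, 8 and 124 counts in KO and 0 in each WT library, and Crb3-201 at 123, 84 and 0 counts in KO, against 46, 58 and 66 in WT. These 2 have the same coding length, 339 bases, and the same coding end. Estimated counts this low depend on how kallisto divides reads between near-identical transcripts. In Cxadr, the minor transcript Cxadr-202 held 8.94%, 7.88% and 8.79% of TPM in KO, against 4.88%, 7.65% and 5.35% in WT.

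**Figure D4:**
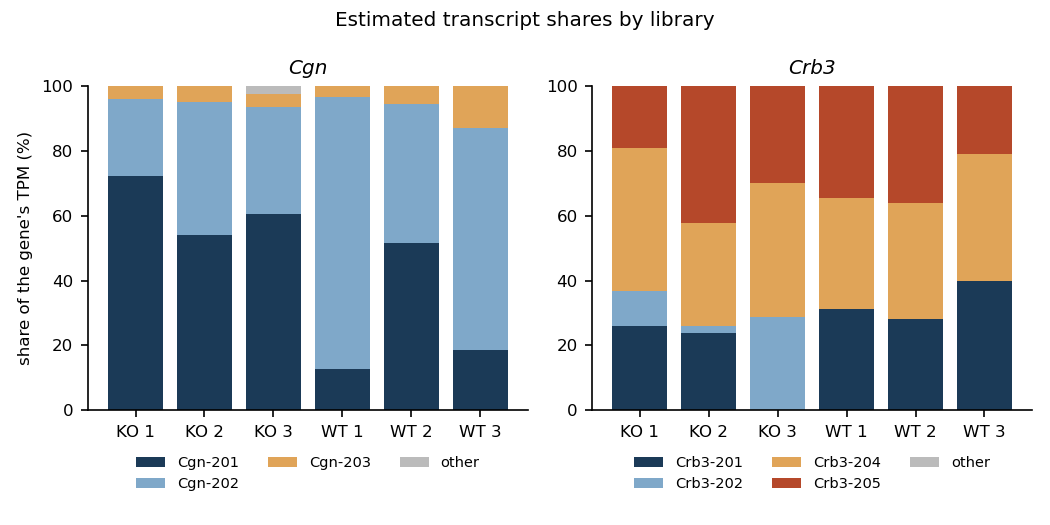
Stacked bars give the percent of the summed TPM of Cgn and Crb3 held by each transcript in each library, KO libraries left of WT libraries, with axes from 0 to 100. Cgn-201 is 54.0% or more in the KO libraries and 51.5% or less in the WT libraries, and Crb3-202 appears in KO libraries alone.

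By the distance between profiles over the 6 libraries (root mean square of log2 CPM, each gene centred on its mean), the genes nearest to the mean of the 9 among 13434 candidates were Pcdhgc3 at 0.0636, Tor3a at 0.0676, Itpr3 at 0.0683, Map7 at 0.0697 and Kcnf1 at 0.0737. F11r lay at 0.0839 from that mean, Tjp3 at 0.103 and Crb3 at 0.351, so among the 9 genes F11r followed it most closely and Crb3 least. Each of the 9 is part of that mean, so their distances are not comparable with those of the genes named before. The nearest gene to Crb3 was Plbd1 at 0.114, with a log2 fold change of 1.16 (edgeR quasi-likelihood adjusted p = 0.0344). The nearest gene was Foxn1 to Marveld2 (0.0595), Fam84a to Ocln (0.0827), Kcnf1 to F11r (0.0371), App to Tjp1 (0.0269), Supt16 to Cxadr (0.0219), Tfap2b to Tjp3 (0.0508), Rsc1a1 to Cgn (0.0633) and Dock8 to Marveld3 (0.0723). These distances are a description of 6 libraries that share the same scaling.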

How the data were processed

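RNA from mouse handpads was sequenced with a stranded mRNA kit, and per the submitters' processing notes FastQC, kallisto and the build mm10 were used; no source used here gives kallisto's version, transcript set or strand setting. The deposited transcript tables hold, per the file headers, an estimated count and a TPM for each of 111462 transcripts in each library, neither changed after kallisto. The authors' deposited table lists, per gene, a log2 fold change, an FDR, the p-value behind it and its likelihood ratio score.

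Transcripts were matched to GENCODE M21 by unversioned identifier (110203 matched), and estimated counts were summed per gene and rounded. The 3 KO libraries were set against the 3 WT libraries by the quasi-likelihood test of edgeR 4.0.16 (R 4.3.3), with TMM scaling and genotype alone in the model. The low-count filter was filterByExpr (min.count 10, min.total.count 15). P-values were adjusted by Benjamini-Hochberg over all 16938 genes, with calls at FDR below 0.05. The script was tested on simulated counts. DESeq2 1.42.0, limma 3.58.1, other scalings, filters and left-out libraries were alternatives. TPM was summed per gene, over all transcripts or, added after the data were seen, over protein-coding ones. In the pan-epithelial scaling each list gene has equal weight, a choice made after a plain sum was seen to follow a few keratins.

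The 9 genes, the partner and marker lists, and the rule for named genes were chosen with earlier results of these data known. The rule names the 9 genes, 8 partners set by name, every called partner, up to 3 partners per list with the smallest p-values, transcripts with at least 5% of a gene's TPM, and the nearest genes by profile. The values of 1 partner that it takes are not reported here. The Hoxd13, Epcam and Grhl3 values check the labels. Reads carry no molecular identifiers, so counts are not independent molecules. Same-numbered KO and WT libraries did not deviate together, so no pairing was used.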

Additional observations from a re-analysis of the deposited data

How the results depend on the processing

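Across 21 alternatives, the log2 fold changes of Crb3 (0.41 to 1.11), Marveld2 (0.35 to 1.23) and Ocln (0.29 to 1.43) kept their sign, and those of Crb3 and Marveld2 passed an FDR of 0.05 under DESeq2 and the likelihood ratio test. The lowest values of these 3 genes came with pan-epithelial scaling and were close to their SE. They were 0.41 ± 0.38 for Crb3, 0.35 ± 0.34 for Marveld2 and 0.29 ± 0.33 for Ocln (SE). Of the 9 genes, 2 were called by DESeq2 and 2 by the likelihood ratio test. No other alternative that kept more than 1 library per group called any. Without WT replicates 2 and 3, F11r stood at 0.72, but that fit assumes that the lone WT library varies like the KO libraries. DESeq2 called 1 of the transcripts, Crb3-202, which the low-count filter of edgeR had left out, and 387 of all 75635 that it tested. Partner genes called numbered 4 with DESeq2, 5 with the likelihood ratio test, 1 with effective length offsets, 1 with Y-linked RNA as a term, 0 with either log2 TPM scale and 0 to 2 with 1 library left out. With the replicate block they numbered 1, and the same-number correlations of -0.244 to -0.092 gave no sign that the numbers pair the libraries.

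Scaling on the pan-epithelial list moved the median of all genes to -0.590 and that of the 9 genes to -0.10. Under it the log2 fold change was -0.44 for Tjp1, -0.10 for Tjp3, -0.45 for Cgn, -0.08 for F11r and -0.39 for Cxadr. Marveld3 was 0.25 with the Y-linked term and 0.24 without WT replicates 2 and 3. Tjp1 was -0.04 on both log2 TPM scales and Cgn -0.0011 on log2(TPM + 1). With 1 library left out, the range was -0.20 to 0.36 for Cgn, -0.0027 to 0.26 for Cxadr and -0.40 to 0.07 for Marveld3. The median of the 9, 0.42 in the main fit, ranged from 0.28 to 0.58 with 1 library left out. It was 0.17 on log2(TPM + 1), 0.24 on log2(TPM + 0.1), 0.25 with effective length offsets and 0.73 with the Y-linked term. The cause of these shifts was not tested. Depth limits Marveld3, at 66 to 162 counts per library, and single transcripts with few counts, such as those of Crb3.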
